A study of Mus musculus with 8 samples.

Results

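A set of 36 mouse genes of the unfolded protein response and the integrated stress response was followed in cultured colon fibroblasts with and without Zeb1. The genes were taken by symbol from a fixed list, out of 45321 genes with a count, and all 36 passed the expression filter that left 12963 genes for testing. They fall into 13 genes of protein folding and degradation in the endoplasmic reticulum (ER), 4 sensors and sensor-linked factors, 9 stress transcription factors and feedback genes, and 10 genes of amino acid and one-carbon metabolism that ATF4 is known to induce.

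The unfolded protein response reads the load of unfolded protein in the ER through the membrane sensors IRE1, PERK and ATF6. IRE1 splices the Xbp1 message, ATF6 is cut to release a transcription factor, and both factors raise ER chaperones and degradation genes. PERK instead phosphorylates the initiation factor eIF2, an arm that it shares with kinases sensing amino acid shortage, viral RNA or heme shortage. General translation then drops while translation of ATF4 goes up, and ATF4 induces amino acid genes and, with CHOP (encoded by Ddit3), a set of feedback and death-related genes. Fibroblasts secrete collagen in bulk and fold it in the ER, and the amino acid branch supplies the glycine and proline that collagen needs.

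The libraries came from adherent fibroblasts grown out of mouse colon fragments and given no treatment per the labels. There were 4 libraries of Zeb1 flox/flox cultures (Fib-Ctrl) and 4 of Zeb1 del/del cultures (Fib-dZeb1), as 2 lines per genotype with 2 replicates each. The floxed gene was deleted in culture by Cre recombinase, whose source is not stated for these lines, nor is the handling of Fib-Ctrl cultures at that step, the age of the animals, or whether a line came from normal or tumour tissue. Whether lines with the same number share an animal is not stated either, and what separated the replicates of a line is unknown, so p-values over 8 libraries may rest on technical spread within only 2 cultures per genotype.

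Libraries held 18852422 to 25540529 reads. Levels of a gene across libraries are given as CPM, read counts scaled to a common library size. Zeb1, a repressor of epithelial genes, averaged 94.7 CPM in Fib-Ctrl (SD 2.71, n = 4) and 14.3 CPM in Fib-dZeb1 (SD 2.96, n = 4), in accord with the labels of all 8 libraries. All 7 fibroblast markers had reads in both genotypes, and their summed level was 41085 to 51875 CPM in Fib-Ctrl against 12316 to 23825 CPM in Fib-dZeb1, mostly collagen. Only Col1a1 (19536 to 26405 against 4189 to 10113 CPM) and Col1a2 (12375 to 15851 against 2856 to 6528 CPM) did not overlap, while Col3a1, Pdgfra, Vim, Dcn and Lum did. The summed epithelial markers were at 0.155 to 0.874 CPM in Fib-Ctrl and 2.67 to 5.24 CPM in Fib-dZeb1, with Cdx2 at 0, and the immune markers were at 0.366 to 0.671 and 0.771 to 1.38 CPM, with Adgre1 at 0. Markers of interstitial cells of Cajal summed to 3.96 to 19.9 and 20.9 to 86.6 CPM, nearly all from Ano1, since Kit was at 0 to 0.0955 CPM. Those of smooth muscle summed to 555 to 983 and 409 to 450 CPM, a gap carried by Cnn1 (429 to 708 and 189 to 273 CPM), while Myh11, Smtn and Des overlapped. Xist was read in Fib-dZeb1 line 1 (250.9 and 113 CPM) and Ddx3y in the other 3 lines, so the cultures of line 1 differ in sex and do not come from the same animal. For the cultures of line 2 this remains unknown. In bulk RNA, fewer cells making a message and less message per cell cannot be told apart.

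By read density per transcript length (TPM), 3 ER chaperones were the most abundant of the 36 messages. Calr, the calcium-binding lectin chaperone calreticulin, had a mean of 1189 TPM over the 8 libraries (1030 to 1282 TPM). Hsp90b1, the ER form of HSP90, followed with 869 TPM (745 to 986) and Hspa5, the ER form of HSP70 known as BiP, with 804 TPM (610 to 992). These ranges overlap for Hsp90b1 and Hspa5, and the lowest value of Calr lies above the highest of both. Among the factors, Atf5, a close relative of Atf4, had a mean of 439 TPM and a wide range (163 to 779 TPM), and Atf4 had 311 TPM (241 to 385). At the low end stood Ern1, which encodes IRE1 (8.34 TPM), Atf3, a stress-induced repressor (3.18 TPM), and Slc7a11, the cystine transporter (2.93 TPM). The 13 ER genes together made up 4210 to 4936 TPM in Fib-Ctrl and 4740 to 5067 TPM in Fib-dZeb1, whereas the 9 factors and feedback genes made up 982 to 1634 and 626 to 1152 TPM. These TPM sums serve to compare groups of genes, not genotypes. On scaled counts the median log2 fold change, Fib-dZeb1 over Fib-Ctrl, was -0.09 for the ER genes and -0.51 for the factors and feedback genes.

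The promoters were searched for the elements through which these arms are known to act. Of the 32 genes with a window, 13 held at least 1 element and 19 none. Sites are shown because the ER genes and the ATF4-linked genes are set apart in the results below. Genes and elements were both chosen as known parts of these arms, so the shares given here are no independent result. RefSeq promoter windows (GRCm38.p6, 250 bases before to 50 after the start) matched 32 of the 36 genes and 27025 genes in all. Atf6, Hyou1, Manf and Slc7a5 were not matched. Atf5 and Psat1 had 2 windows each, and each gene was counted once. The ER stress response element, searched on both strands as CCAAT and CCACG with 9 bases between them, was found in 7 of 11 ER genes (63.6%) and in 37 of the 27025 genes (0.137%). Hspa5, Hsp90b1, Dnajc3, Creld2, Pdia6, Calr and Canx carry it, Hsp90b1 at 2 places. Capitals mark the element below, on the gene's strand from 5′ to 3′, and in Calr it runs on the opposite strand. The Hspa5 site is at chr2:34772015-34772053, that of Pdia6 at chr12:17266481-17266519, that of Canx (minus strand gene) at chr11:50325790-50325828 and that of Calr (minus strand gene) at chr8:84847065-84847103.
Hspa5: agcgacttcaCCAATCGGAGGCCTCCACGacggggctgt
Pdia6: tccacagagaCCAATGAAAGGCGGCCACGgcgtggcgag
Canx: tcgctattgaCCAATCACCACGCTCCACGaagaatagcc
Calr: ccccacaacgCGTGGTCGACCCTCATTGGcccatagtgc

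Herpud1, whose product organises the degradation complex of the ER membrane, had no exact match to the ER stress response element. Its window holds CCAAT and CCACA with 9 bases between them, but inexact matches were not counted. Herpud1 carries the second form of this element (ATTGG and CCACG with 1 base between them), which 12 of 27025 genes (0.0444%) have. This site, at chr8:94386367-94386397, is shown first below. A core of the element bound by C/EBP and ATF proteins (TGATG, any base, AA, either strand) was found in 6 of 32 genes of the set (18.8%) against 1219 of 27025 (4.51%). These were Herpud1, Atf3, Trib3, Chac1, Asns and Slc7a11, the last with 2 sites. The Asns site is at chr6:7693215-7693242 (minus strand gene), the Chac1 site at chr2:119351039-119351066 and the Atf3 site at chr1:191183426-191183453 (minus strand gene), and in Chac1 and Atf3 it runs on the opposite strand. TGACG followed by TGG, the core of the XBP1-bound element, was in no window of the 32 genes and in 193 of all genes (0.714%), which says only that these letters are not there. No 2 matches overlapped, and a match is a description, not a proven site.
Herpud1: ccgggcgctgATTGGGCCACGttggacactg
Asns: cccagccacaTGATGAAActtcccgcac
Chac1: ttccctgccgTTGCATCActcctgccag
Atf3: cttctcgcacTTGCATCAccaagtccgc

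The first comparison asked how the set differs between the genotypes. Of the 36 genes, 5 were lower in Fib-dZeb1 and 0 were higher (edgeR quasi-likelihood test, Benjamini-Hochberg adjusted p under 0.05, 12963 genes). Over all genes tested, 8.65% were called lower and 7.54% higher, so the share of lower calls in the set (5 of 36) is near the background. At an unadjusted p under 0.05, 1 member was higher and 9 were lower, 10 of 36 where 32.7% of all genes were. DESeq2 called 1 higher (Atf3, 10.4% of all genes) and 6 lower (the 5 and Slc3a2, 11.6% of all genes). The median log2 fold change of the set was -0.22, with 28 members negative and 8 positive, against -0.005 for all genes. By library size alone the median was -0.036 (22 negative, 14 positive), and with limma on log2(TPM + 1) it was -0.068 (23 and 13), while the median of all genes became 0.17 and 0.15. The values of the 2 genotypes did not overlap for 5 members that were lower and 1 that was higher, where 12.3% and 12.0% of all genes showed such a split. The lower genes were Ddit3, Atf5, Cebpb, Herpud1 and Xbp1, and the higher one was Atf3.

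**Figure D1:**
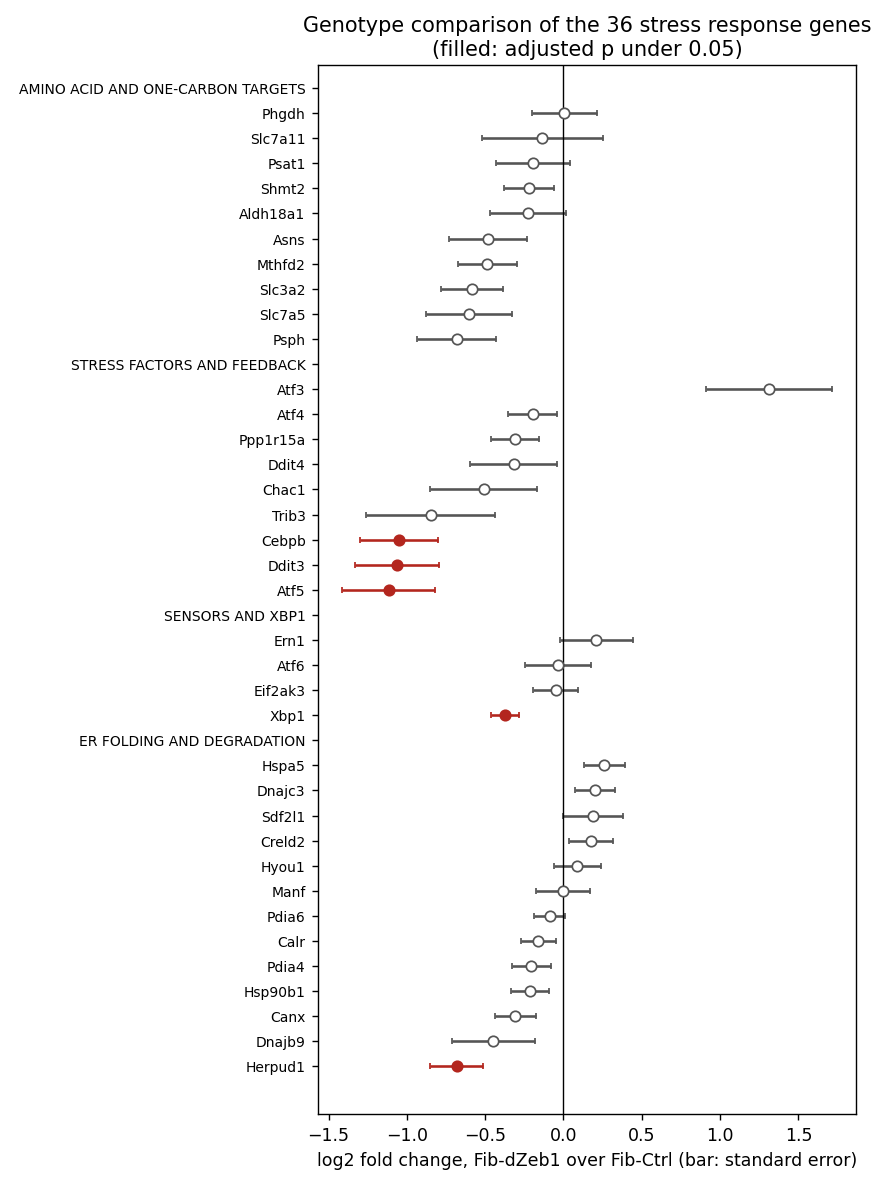
Log2 fold change of each of the 36 genes, Fib-dZeb1 over Fib-Ctrl (x axis), with bars of 1 standard error, by role; filled red points passed an adjusted p of 0.05. The 5 filled points all lie left of 0, 3 of them among the stress factors and feedback genes, and Atf3 is the open point furthest to the right at 1.31.

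The stress transcription factors held 3 of the 5 calls. Ddit3 encodes CHOP, the factor that turns a lasting stress response towards cell death. Fib-Ctrl line 1 had 42.6 and 27.4 CPM (replicates 1 and 2) and line 2 had 44.0 and 24.1 CPM. The Fib-dZeb1 lines had 20.4 and 11.4 CPM and 20.6 and 13.8 CPM. Every Fib-dZeb1 library was below every Fib-Ctrl library, although the gap between 24.1 and 20.6 CPM was small beside the gap between replicates. The 24.1 CPM is from a replicate 2 and the 20.6 CPM from a replicate 1. Within replicate 1, Fib-Ctrl had 42.6 and 44.0 CPM against 20.4 and 20.6 CPM. Within replicate 2 it had 27.4 and 24.1 CPM against 11.4 and 13.8 CPM. The log2 fold change was -1.06 (SE 0.27, adjusted p = 0.0312 by edgeR), a 2.09-fold lower level. Ddit3 overlaps Mars on the other strand of chromosome 10 (127290774 to 127296288), and the strand setting of the counting is not given, so reads of the 2 genes may not be fully told apart. Another protein-coding entry named Ddit3 overlaps the counted gene on the same strand and had no count of its own.

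Atf5, which takes part in amino acid and mitochondrial stress, was the member with the lowest ratio. The Fib-Ctrl libraries had 738 and 462 CPM (line 1) and 603 and 463 CPM (line 2), and the Fib-dZeb1 libraries had 213 and 148 CPM and 394 and 290.0 CPM. The groups did not overlap, with Fib-dZeb1 line 1 lowest. The log2 fold change was -1.12 (SE 0.30, adjusted p = 0.0371 by edgeR). Atf5 overlaps Nup62 and Il4i1 on the other strand. Cebpb encodes C/EBP beta, a partner of ATF4 and a driver of inflammatory genes. Fib-Ctrl line 1 had 103 and 171 CPM and line 2 had 83.0 and 79.2 CPM, against 56.8 and 59.7 CPM and 50.6 and 43.6 CPM in the Fib-dZeb1 lines. A single library, Fib-Ctrl line 1 replicate 2, lay far above the rest. The log2 fold change was -1.05 (SE 0.25, adjusted p = 0.0250 by edgeR), and -0.75 with an adjusted p of 0.0220 without that library.

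**Figure D2:**
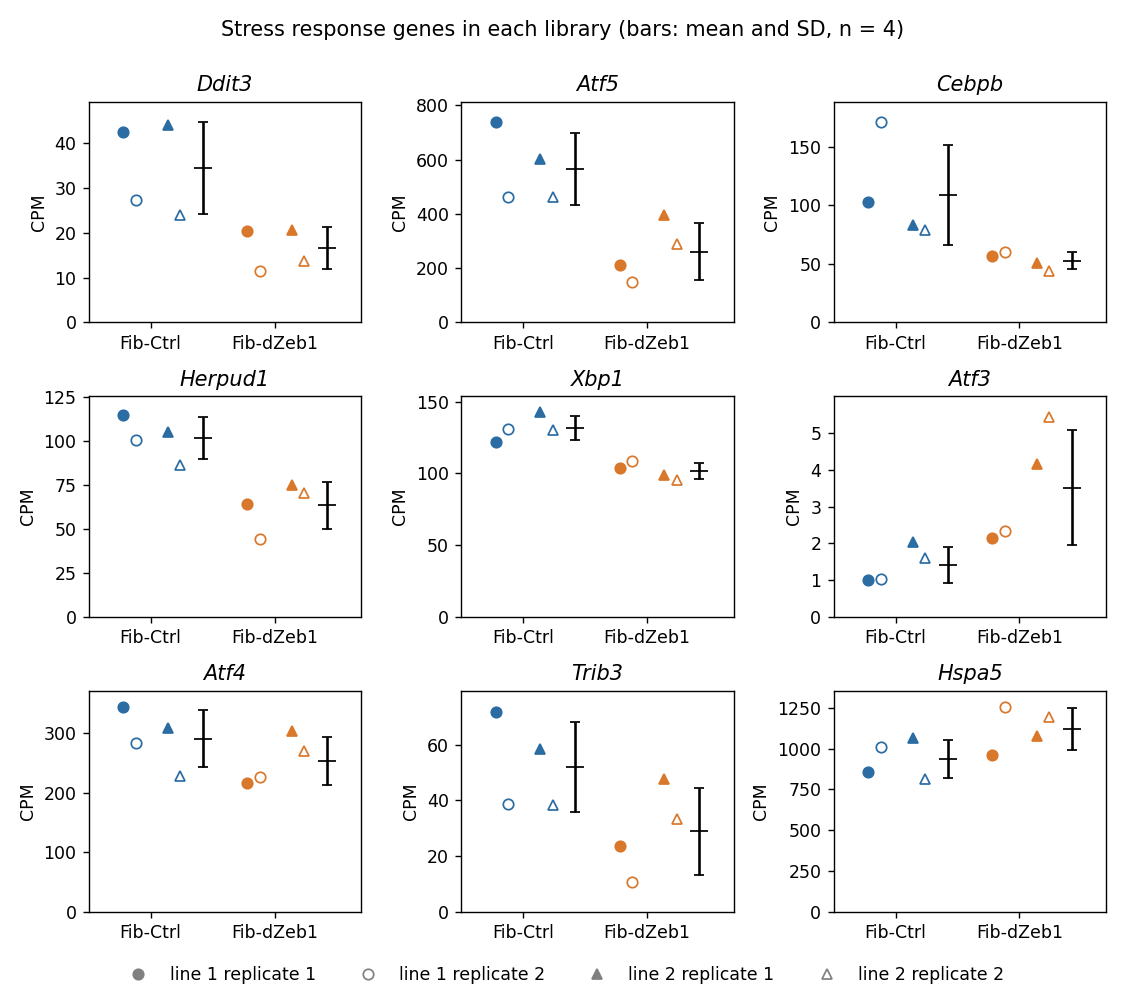
CPM (y axis, linear from 0) of 9 stress response genes, 1 panel each, in all 8 libraries; line 1 is drawn as circles and line 2 as triangles, replicate 1 filled and replicate 2 open, with a black bar for the group mean ± SD (n = 4). Ddit3, Atf5, Cebpb, Herpud1 and Xbp1 do not overlap between genotypes and are lower in Fib-dZeb1, Atf3 does not overlap and is higher, and Atf4, Trib3 and Hspa5 overlap.

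Atf3, the stress-induced repressor, stood on the other side of 0 from its group and did not pass the test. Fib-Ctrl line 1 had 1.01 and 1.03 CPM and line 2 had 2.04 and 1.60 CPM. Fib-dZeb1 line 1 had 2.15 and 2.34 CPM and line 2 had 4.15 and 5.43 CPM. All 4 Fib-dZeb1 libraries were above all 4 Fib-Ctrl libraries. The log2 fold change was 1.31 (SE 0.40, adjusted p = 0.0565 by edgeR), and over the other settings with all 8 libraries the adjusted p ranged from 0.0156 (DESeq2) to 0.396 (lines summed). The level is low, so the count behind each value is small next to those of Atf4 or Atf5.

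Atf4 itself did not pass the test. Its message was at 344 and 283 CPM and 308 and 229 CPM in Fib-Ctrl, and at 216 and 226 CPM and 304 and 269 CPM in Fib-dZeb1. The groups overlap, with Fib-dZeb1 line 1 lowest and line 2 inside the Fib-Ctrl range (log2 fold change -0.20, SE 0.16, adjusted p = 0.428). ATF4 is controlled mainly at translation, which these data do not measure. Trib3, a pseudokinase that restrains CHOP and AKT, had 71.9, 38.9, 58.6 and 38.5 CPM across the Fib-Ctrl libraries and 23.8, 10.8, 47.7 and 33.3 CPM across those of Fib-dZeb1, in the order line 1 replicates 1 and 2, line 2 replicates 1 and 2. The estimate was -0.85 on the log2 scale (SE 0.41, adjusted p = 0.191). Again line 1 of Fib-dZeb1 was lowest. Chac1, which breaks down glutathione, had a log2 fold change of -0.51 (SE 0.34), Ddit4, an inhibitor of mTORC1, of -0.32 (SE 0.28), and Ppp1r15a, the phosphatase subunit GADD34 that reverses eIF2 phosphorylation, of -0.31 (SE 0.16). None of these 3 passed. Over the 9 genes of this group 3 were called lower and 0 higher, where 8.65% and 7.54% of all genes were. The median log2 fold change was -0.51 and 8 were negative, against a median of -0.005 for all genes.

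Among the ER genes, Herpud1 was lower and the major chaperones did not pass the test in either direction. Herpud1 had 115 and 101 CPM and 105 and 86.5 CPM in the Fib-Ctrl lines, and 64.1 and 44.3 CPM and 75.0 and 70.4 CPM in the Fib-dZeb1 lines. The groups did not overlap, and Fib-dZeb1 line 1 replicate 2 was lowest. Its log2 fold change was -0.68 (SE 0.17, adjusted p = 0.0299 by edgeR), a 1.60-fold lower level. Hspa5, the classical readout of ER stress, was at 858 and 1009 CPM and 1062 and 813 CPM in Fib-Ctrl, and at 962 and 1255 CPM and 1075 and 1192 CPM in Fib-dZeb1. These ranges overlap. The log2 fold change of Hspa5 was 0.26 (SE 0.13, interval of 2 SE from 0.0015 to 0.52, adjusted p = 0.1998).

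The other 11 ER genes spanned log2 fold changes from -0.45 to 0.20. Dnajb9, a cochaperone of BiP that restrains IRE1, was at -0.45 (SE 0.26), and Canx, the membrane-bound lectin chaperone calnexin, at -0.31 (SE 0.13, adjusted p = 0.139). Hsp90b1 was at -0.21 (SE 0.12), Pdia4, a disulfide isomerase, at -0.20 (SE 0.12) and Calr at -0.16 (SE 0.11). Pdia6, another disulfide isomerase, stood at -0.09 (SE 0.10). On the positive side stood Dnajc3, an ER cochaperone also known as P58IPK, at 0.20 (SE 0.13), Sdf2l1 at 0.19 (SE 0.19), Creld2 at 0.18 (SE 0.14) and Hyou1, a large HSP70-type chaperone, at 0.09 (SE 0.15). Manf, a secreted ER stress protein, was at -0.004 (SE 0.17). In all, 1 of 13 was called lower and 0 higher (8.65% and 7.54% of all genes), with a median of -0.09. This median turns to 0.09, and 8 of 13 estimates become positive, when libraries are scaled by library size alone, which moves the median of all genes to 0.17. Under that scaling Hspa5 passed (log2 fold change 0.44, adjusted p = 0.0396). The collagen messages Col1a1 and Col1a2, whose products pass through the ER, were lower in every Fib-dZeb1 library as given above, and their part in these values was not tested.

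Of the sensors, Xbp1 was lower and the 3 membrane sensors did not pass. Xbp1 encodes the factor made active by IRE1 splicing. It was at 122 and 131 CPM and 143 and 129.99 CPM in Fib-Ctrl and at 103 and 108 CPM and 98.7 and 95.7 CPM in Fib-dZeb1. The libraries of each genotype lie close together and the groups do not overlap, but the difference is small (-0.37 on the log2 scale, SE 0.09, adjusted p = 0.0245 by edgeR, a 1.29-fold lower level). It was -0.19 with an adjusted p of 0.124 by library size alone, and -0.20 (0.109) with limma on log2(TPM + 1). Spliced and unspliced Xbp1 messages were not analysed here. Atf6 had a log2 fold change of -0.04 (SE 0.21), Eif2ak3, which encodes PERK, of -0.05 (SE 0.14), and Ern1 of 0.21 (SE 0.23). The median of the 4 genes was -0.04, or 0.14 by library size alone.

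The 10 amino acid and one-carbon genes gave no call by genotype. With libraries blocked by line and replicate number, Psph (adjusted p = 0.0331), Mthfd2 (0.0388) and Slc7a5 (0.0308) passed as lower, where 6.87% of all genes did. This block matches libraries of the same line and replicate number across genotypes, a pairing that the library values did not show. DESeq2 called Slc3a2 as lower, where 11.6% of all genes were. Asns, asparagine synthetase, is a standard ATF4 target. It had 241 and 181 CPM and 268 and 196 CPM in the Fib-Ctrl lines, and 126 and 102 CPM and 225 and 180.4 CPM in the Fib-dZeb1 lines. The groups overlap because line 2 of Fib-dZeb1 reaches into the Fib-Ctrl range (log2 fold change -0.48, SE 0.25, adjusted p = 0.216). Slc3a2, the heavy chain of amino acid exchangers, had the smallest adjusted p of the 10 (0.0760, log2 fold change -0.59, SE 0.20), followed by Psph, the last enzyme of serine synthesis (0.0949, -0.68, SE 0.25). Slc7a5, the leucine transporter that pairs with Slc3a2, was at -0.60 (SE 0.27). Slc7a11, the cystine transporter of the same heavy chain, was at -0.14 (SE 0.39). In the serine pathway Phgdh, the first enzyme, was at 0.005 (SE 0.21) and Psat1, the next, at -0.20 (SE 0.23). In the mitochondrial folate pathway Mthfd2 was at -0.49 (SE 0.19) and Shmt2 at -0.22 (SE 0.16), and Aldh18a1, which starts proline synthesis, was at -0.23 (SE 0.24). The median was -0.35, with 9 of 10 negative, and -0.17 with 8 of 10 negative by library size alone.

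The 5 genotype calls depended on single libraries and on how lines were treated. Without Fib-dZeb1 line 2 replicate 2 none of the 5 passed, with adjusted p-values of 0.0596 for Herpud1, 0.0807 for Xbp1, 0.0810 for Atf5, 0.0888 for Ddit3 and 0.0747 for Cebpb. Calls over all genes fell as well, from 978 higher and 1121 lower of 12963 to 476 and 508 of 13192. Without Fib-Ctrl line 2 replicate 1 only Cebpb passed, and the others had 0.0671 (Herpud1), 0.0648 (Xbp1), 0.0760 (Atf5) and 0.0727 (Ddit3). Without Fib-Ctrl line 1 replicate 1, Xbp1 and Cebpb passed, and Herpud1 (0.0699), Atf5 (0.0832) and Ddit3 (0.0720) did not. Without Fib-dZeb1 line 2 replicate 1, Xbp1 (0.0680) and Cebpb (0.0624) were lost. Without Fib-dZeb1 line 1 replicate 1, Herpud1 (0.0528) and Atf5 (0.0734) were lost and Atf3 passed (0.0436). Without Fib-Ctrl line 1 replicate 2, Herpud1 (0.0588), Xbp1 (0.0532) and Atf5 (0.0522) were lost, and without Fib-dZeb1 line 1 replicate 2, Atf5 (0.0630) and Ddit3 (0.0717). Without Fib-Ctrl line 2 replicate 2 all 5 passed. Slc3a2 was called lower without Fib-dZeb1 line 2 replicate 1, and Psph without Fib-Ctrl line 1 replicate 2. Each of the 5 kept its sign in all 8 omissions. With lines as units, 2 per genotype, none passed (0.174 for Ddit3 was the smallest of the 5), nor with the correlation of libraries within lines estimated at 0.543 (0.135 for Cebpb the smallest). Few genes passed in these 2 fits at all. With lines as units 9 were higher and 7 lower of 14163 genes. With the correlation within lines 114 were higher and 146 lower of 12963 genes. Blocking by line and replicate number ended the calls of Herpud1 (0.0541) and Xbp1 (0.0579) and gave 1 higher and 6 lower in the set, against 6.09% and 6.87% of all genes. That block matches libraries of the same number across genotypes, a pairing that the library values did not show, and the line 1 cultures differ in sex.

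Lines of one genotype also differed, and the genes called were others than those of the genotype comparison when no replicate block was fitted. In Fib-Ctrl, 5 of 36 were higher in line 2 than in line 1 and 0 were lower, where 8.32% and 8.72% of all genes were. Atf6 showed the clearest step. Line 1 had 75.1 and 75.8 CPM and line 2 had 139.6 and 121 CPM. The Fib-dZeb1 lines lay between them, line 1 with 104 and 105 CPM, line 2 with 89.4 and 103 CPM. Its log2 difference between Fib-Ctrl lines was 0.79 (SE 0.11, adjusted p = 0.00537 by edgeR), and it passed in all 8 omissions. Phgdh had 288 and 229 CPM in line 1 against 469 and 398 CPM for line 2, a log2 difference of 0.75 (SE 0.14, adjusted p = 0.0136), while the Fib-dZeb1 lines had 330.1 and 343 CPM and 354 and 362 CPM. Shmt2 had 146 and 141 CPM, then 222 and 206.2 CPM (0.58, SE 0.10, adjusted p = 0.00976), with 152 and 159 CPM and 158 and 145 CPM in the Fib-dZeb1 lines. For all 3 genes the Fib-dZeb1 libraries lay closer together than the Fib-Ctrl lines did.

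The other calls of that contrast were Mthfd2 and Dnajb9. Mthfd2 had 157 and 123 CPM in Fib-Ctrl line 1 against 223 and 186 CPM for line 2 (log2 difference 0.55, SE 0.15, adjusted p = 0.0484), with 115 and 103 CPM and 146 and 129 CPM in the Fib-dZeb1 lines. Dnajb9 had 19.1 and 18.6 CPM in Fib-Ctrl line 1 against 33.7 and 25.8 CPM for line 2 (0.66, SE 0.16, adjusted p = 0.0318). In Fib-dZeb1, Dnajb9 had 21.1 and 23.6 CPM in line 1 against 13.0 and 13.5 CPM for line 2 (-0.75, SE 0.16, adjusted p = 0.0370). Line numbers were not shown to match across genotypes, so the signs of the 2 Dnajb9 contrasts cannot be set against each other. The difference between them was not tested. Leaving out replicate 1 of Fib-Ctrl line 2 or replicate 2 of Fib-Ctrl line 1 ended the call of Phgdh (highest adjusted p 0.0853), and these or replicate 1 of Fib-Ctrl line 1 that of Shmt2 (0.0695). Mthfd2 kept its call in 2 of 8 omissions (up to 0.228), Dnajb9 in 3 of 8 in Fib-Ctrl (up to 0.169) and in 3 of 8 in Fib-dZeb1 (up to 0.204). With the replicate number as a block, the Fib-Ctrl contrast kept its 5 calls and had 9 higher and 3 lower, against 13.2% and 12.6% of all genes. Added as higher were Dnajc3, Psph, Slc7a11 and Slc7a5, and as lower Eif2ak3, Cebpb and Ddit4 (adjusted p 0.0155 to 0.0455).

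In Fib-dZeb1, 2 of 36 were higher in line 2 than in line 1 and 1 was lower, against 3.39% and 3.48% of all genes. The higher genes were Psat1, which moves nitrogen from glutamate into the serine pathway, and Aldh18a1, which turns glutamate towards proline. Psat1 had 249.1 and 265 CPM in line 1 against 490.2 and 481 CPM for line 2, with 444 and 392 CPM and 446 and 419.8 CPM in the Fib-Ctrl lines. The log2 difference was 0.92 (SE 0.11, adjusted p = 0.00684). Aldh18a1 had 162 and 126 CPM in line 1 against 278 and 246 CPM for line 2, with 280.4 and 235 CPM and 229 and 204.9 CPM in the Fib-Ctrl lines (0.86, SE 0.16, adjusted p = 0.0236). Both lost the call without either library of Fib-dZeb1 line 2 (adjusted p up to 0.0565 for Psat1 and 0.141 for Aldh18a1). The lower gene was Dnajb9, given above. With the replicate number as a block, all 3 kept their calls and the contrast had 9 higher and 2 lower, against 6.78% and 6.67% of all genes. Added as higher in line 2 were Atf5 (0.93, adjusted p = 0.00377), Trib3 (1.30, 0.00621), Chac1 (1.03, 0.00443), Asns (0.83, 0.00293), Slc7a5 (0.74, 0.00776), Slc3a2 (0.56, 0.00988) and Mthfd2 (0.33, 0.0476), and Canx was added as lower (-0.37, 0.0386).

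Seen by line, many of the ATF4-linked genes were lowest in Fib-dZeb1 line 1. Both libraries of that line lay below the other 6 for 12 of 36 members, where 8.56% of all genes did so. The 12 were Atf4, Atf5, Trib3, Chac1, Asns, Psat1, Mthfd2, Aldh18a1, Slc7a5, Slc3a2, Herpud1 and Pdia4. This layout was counted after the values had been seen and is a description. Fib-Ctrl line 1 lay below the other 6 libraries for 4 members (13.0% of all genes), Fib-Ctrl line 2 for 0 (13.0%) and Fib-dZeb1 line 2 for 5 (11.6%), which were Hsp90b1, Dnajb9, Canx, Xbp1 and Cebpb. Fib-Ctrl line 2 lay above the other 6 for 7 members (12.6% of all genes), namely Hsp90b1, Dnajb9, Canx, Atf6, Phgdh, Shmt2 and Mthfd2. Slc7a5 shows the step between the Fib-dZeb1 lines, with 204 and 156 CPM for line 1 but 339.6 and 263 CPM for line 2, against 385, 241, 488 and 344 CPM in Fib-Ctrl. Sex differs between the line 1 cultures, and line, sex and genotype cannot be told apart for that culture.

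**Figure D3:**
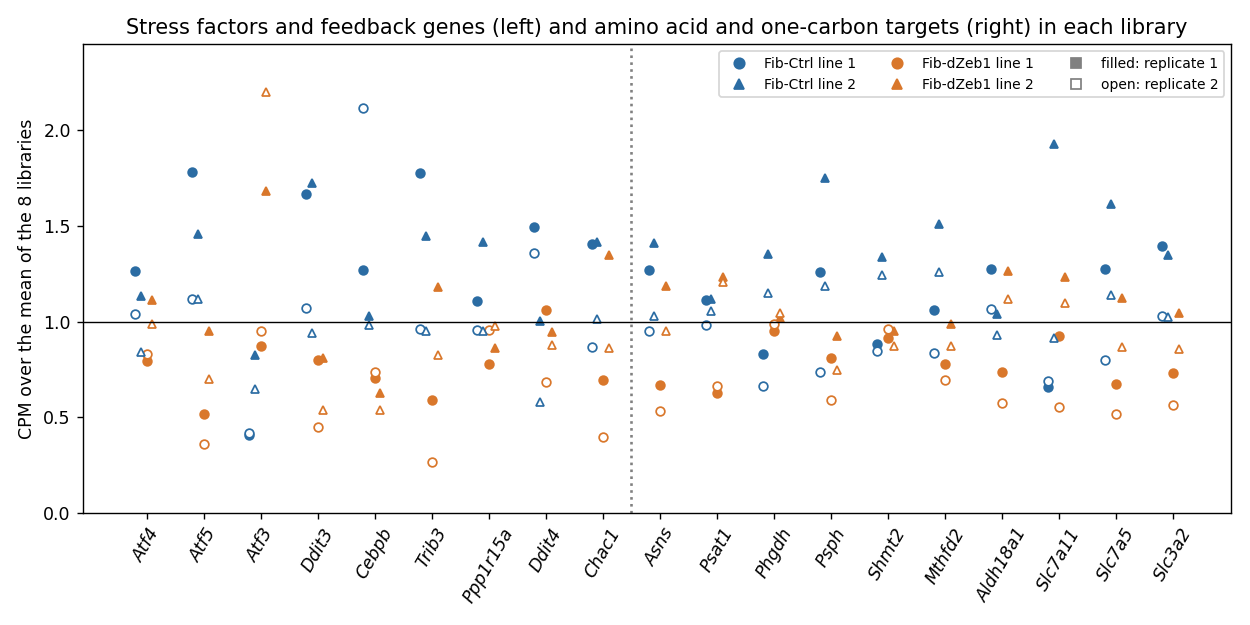
CPM of each library over the mean of the 8 libraries (y axis, linear from 0) for the 9 stress factors and feedback genes, left of the dotted line, and the 10 amino acid and one-carbon genes, right of it; line 1 is drawn as circles and line 2 as triangles, with replicate 1 filled and replicate 2 open. The orange circles of Fib-dZeb1 line 1 lie at the bottom for Atf5, Trib3, Chac1, Asns, Psat1, Aldh18a1, Slc7a5 and Slc3a2, while the orange triangles of line 2 lie higher than those circles for each of these genes.

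Many ATF4-linked genes were lower in replicate 2 than in replicate 1 in every line, although no member passed the test. Replicate 2 was compared with replicate 1 with a separate mean for each line, and edgeR called 0 of 36 members in either direction (0.0154% of all genes were called higher and 0.00771% lower). At an unadjusted p under 0.05, 2 members were higher and 14 lower (19.6% of all genes in either direction), and DESeq2 called 1 higher and 10 lower (2.44% and 2.65% of all genes). In all 4 lines, 13 of 36 members were lower in replicate 2, where 15.7% of all genes were, and 3 were higher, where 15.1% were. The 13 comprised 6 of 10 amino acid genes, 5 of 9 factors and feedback genes, 1 of 4 sensors (Eif2ak3) and 1 of 13 ER genes (Herpud1). The 3 that were higher were all ER genes, Sdf2l1, Creld2 and Pdia4.

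Trib3 had the lowest fitted log2 difference, with ratios of replicate 2 to replicate 1 of 0.541 and 0.656 in Fib-Ctrl lines 1 and 2 and 0.454 and 0.698 in Fib-dZeb1 lines 1 and 2. Ddit3 had 0.643 and 0.546 in Fib-Ctrl and 0.561 and 0.668 in Fib-dZeb1. Chac1 had 0.617 and 0.716, and 0.570 and 0.639. For these 3 genes all 4 lines were lower in replicate 2. The log2 differences were -0.78 (SE 0.11) for Trib3, -0.73 (SE 0.09) for Ddit3 and -0.66 (SE 0.08) for Chac1, with adjusted p-values of 0.0935, 0.0933 and 0.0933. Atf5 (-0.51, SE 0.07), Psph (-0.53, SE 0.09), Slc7a5 (-0.48, SE 0.07), Asns (-0.38, SE 0.06) and Slc3a2 (-0.37, SE 0.06) had adjusted p-values of 0.0935 to 0.0970. The ratios of Asns lay between 0.730 and 0.803 and those of Slc3a2 between 0.739 and 0.820.

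Few of the ER genes had that layout. Creld2 had ratios of 1.19 to 1.31 (log2 difference 0.32, SE 0.06, adjusted p = 0.113) and Sdf2l1 of 1.19 to 1.43 (0.36, SE 0.09, adjusted p = 0.138). Hspa5 had 1.18 in Fib-Ctrl line 1 but 0.766 in line 2, and 1.30 and 1.11 in Fib-dZeb1. The ER group had a median log2 difference of 0.10, the feedback group of -0.41 and the amino acid group of -0.31, with all 10 members of the last negative, against -0.014 for all genes. Atf4 itself had ratios of 0.824, 0.742, 1.05 and 0.888. The labels do not say what the replicate number marks, and a harvest, a passage and an extraction cannot be told apart here.

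**Figure D4:**
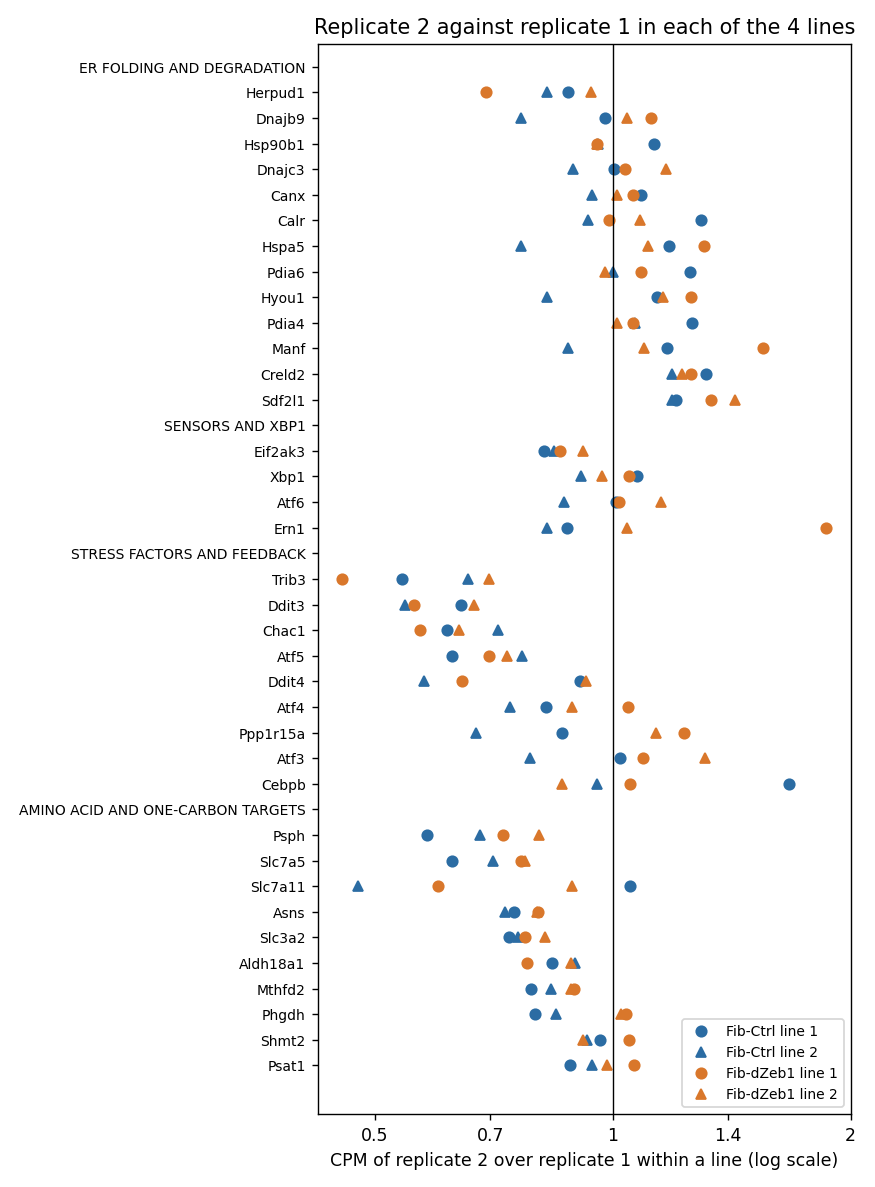
CPM of replicate 2 over replicate 1 within each of the 4 lines (x axis, log scale) for the 36 genes by role, ordered by their mean log ratio; blue marks Fib-Ctrl, orange Fib-dZeb1, circles line 1 and triangles line 2. All 4 symbols lie left of 1 for 13 genes, among them Trib3, Ddit3, Chac1, Atf5 and Asns, and right of 1 for Sdf2l1, Creld2 and Pdia4.

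Because many of these genes were split by replicate number, the genotypes were also compared within each number. Within replicate 1 the log2 fold change of Ddit3 was -1.08 (adjusted p = 0.0763) and within replicate 2 it was -1.03 (0.0628), and these were the smallest adjusted p-values of the set. Atf5 gave -1.14 and -1.08, Herpud1 -0.66 and -0.70, Xbp1 -0.39 and -0.36, and Cebpb -0.79 and -1.28. With 2 libraries per genotype, edgeR called none of the 36 in either number (0.154% and 0.679% of all genes were called), while 7 and 6 had an unadjusted p under 0.05, where 14.4% and 19.4% of all genes did. Fitting the replicate number as a block left the count at 5 lower and 0 higher, where all genes gave 1046 and 920 of 12963. The adjusted p-values by edgeR were 0.0027 for Ddit3, 0.0281 for Herpud1, 0.0299 for Atf5, 0.0337 for Xbp1 and 0.0364 for Cebpb. The difference of the genotype effect between the replicate numbers was called for none of the 36 and for 0% of all genes. Of the set, 1 member, Ppp1r15a, had an unadjusted p under 0.05.

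Other genes of these pathways, counted over whole lists, gave a mixed picture by genotype. Of 24 further targets of ATF4 and CHOP, 5 were lower and 1 was higher (8.65% and 7.54% of all genes), and the median was -0.48 with 20 negative. From line 1 to line 2 of Fib-dZeb1, 19 of the 24 were positive (median 0.34). There 4 were called higher and 1 lower (3.39% and 3.48% of all genes). Line 1 of Fib-dZeb1, the culture with Xist reads, was thus the lower line for most of them. In Fib-Ctrl 15 were positive (median 0.18), with 3 called higher and 0 lower (8.32% and 8.72% of all genes). Gdf15, a secreted stress cytokine, averaged 19.4 ± 10.2 CPM in Fib-Ctrl against 6.12 ± 2.40 CPM in Fib-dZeb1 (SD, n = 4), -1.67 on the log2 scale (SE 0.43, adjusted p = 0.0328 by edgeR), and Slc1a5, a glutamine transporter, went from 89.4 ± 15.9 to 43.8 ± 5.37 CPM (-1.03, SE 0.15, adjusted p = 0.00506). Tnfrsf10b, a death receptor that CHOP is known to induce, was the one that rose, from 58.7 ± 4.33 to 99.4 ± 3.41 CPM (0.76, SE 0.09, adjusted p = 0.00184), while Ddit3 was lower. Of 12 cytosolic aminoacyl-tRNA synthetases none passed (smallest adjusted p 0.0672), with a median of -0.31 and 11 negative. From line 1 to line 2, 11 of the 12 synthetases were positive in Fib-dZeb1 (median 0.30), with 0 called in either direction (3.39% and 3.48% of all genes). In Fib-Ctrl all 12 were positive (median 0.32), with 3 called higher and 0 lower (8.32% and 8.72% of all genes). The most abundant were Aars at 516 ± 85.1 and 395 ± 84.4 CPM and Nars at 450.1 ± 177 and 359 ± 48.2 CPM.

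Of 47 tested genes of ER folding, degradation and translocation outside the set, 10 were lower and 3 higher (against the same 8.65% and 7.54%), with a median of -0.14. Creb3l1, an ER membrane-bound factor of secretory cells, averaged 165 ± 58.0 CPM in Fib-Ctrl against 56.3 ± 17.0 CPM in Fib-dZeb1 (-1.56 on the log2 scale, SE 0.29, adjusted p = 0.0112 by edgeR). Sel1l, the adaptor of the HRD1 ubiquitin ligase in ER-associated degradation, where Herpud1 also acts, went from 239 ± 51.6 to 110.2 ± 16.1 CPM (-1.12, SE 0.18, adjusted p = 0.00641). Spcs3, a subunit of the signal peptidase, rose from 97.4 ± 14.7 to 135 ± 12.6 CPM (0.47, SE 0.13, adjusted p = 0.0422), and Hspa13, an HSP70-type protein of the ER, from 86.0 ± 10.2 to 119 ± 7.97 CPM (0.46, SE 0.11, adjusted p = 0.0239). Among 12 genes of the eIF2 machinery, Eif2b4, a subunit of its exchange factor, was the only call (0.40, SE 0.12, adjusted p = 0.0495, higher), where 7.54% of all genes were higher.

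The stress responses of other compartments gave few calls. Of 11 cytosolic heat shock genes, Hspb1 (-0.46, adjusted p = 0.0270) and Bag3 (-0.39, adjusted p = 0.0498) were lower and none was higher by genotype, where 8.65% and 7.54% of all genes were. None of 9 mitochondrial chaperones and proteases passed (smallest adjusted p 0.155), Hspa9 being at -0.05 (SE 0.21) and Hspd1 at 0.30 (SE 0.20). For replicate 2 against replicate 1, 23 of 24 further ATF4 and CHOP targets (median -0.37) and 11 of 12 synthetases (median -0.24) were negative, while 9 of 11 heat shock genes were positive (median 0.22), and none of these genes passed.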

How the data were processed

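Polyadenylated RNA of 8 libraries was sequenced. The authors ran the nf-core RNA-seq pipeline 3.11.0, with STAR alignment to GRCm38 and Salmon quantification. The strand setting and the tool versions were not given in the sources used here. The authors deposited estimated counts and TPM of 109617 transcripts, with no further normalization.

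Counts were summed to 45321 genes with GENCODE M21 (98.72% of transcripts matched, 0.262% to 0.303% of reads left out) and rounded. Replicate libraries were not duplicates of each other, their counts differing beyond sampling error. Genotype, as a single term, was tested in edgeR 4.0.16 under R 4.3.3 (quasi-likelihood, expression filter, TMM). Line contrasts had a mean per line, and the replicate contrast added the replicate number. SE came from the coefficient and its F statistic. DESeq2 1.42.0 and limma 3.58.1 gave alternatives. Fits of edgeR and DESeq2 were also run on simulated counts. Those libraries were independent and had no line effect, so that run cannot show how shared lines affect the calls. TPM compare genes, TMM-scaled CPM compare libraries. Reads of genes with named copies (Calr, Phgdh) or overlapping genes (Manf, Atf5, Ddit3, Hsp90b1, Shmt2, Psph and others) are uncertain.

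Promoters are RefSeq windows of GRCm38.p6. Members and lists were chosen with earlier results of these data known. Every library's value is given for called members and for Hspa5, Atf4, Ddit3, Xbp1 and Asns. Other lists are represented by up to 2 called genes per direction with the largest change, or their 2 most abundant genes. Trib3, Atf3, Slc7a5 and the ratios of Chac1 were singled out after their values were seen. To see whether line and replicate numbers pair the genotypes, each library's departure from its genotype mean was correlated with that of its namesake (0.20, -0.04, -0.04 and 0.07), and libraries were not taken as pairs across genotypes. The change from replicate 1 to 2 correlated between all lines (0.137 to 0.338), so the replicate number ties libraries together and blocked line contrasts are given beside the others.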

Additional observations from a re-analysis of the deposited data

Results flagged for a closer look

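In the 72 groups of 4 libraries examined (36 genes in 2 genotypes), 2 held a library whose gap to its neighbours was large for the range of its group (Dixon's test, which flags about 1 group in 20 by chance). Manf, the secreted ER stress protein, was at 178.6 CPM in Fib-dZeb1 line 1 replicate 2, while the other 3 Fib-dZeb1 libraries had 108.5 to 118.8 CPM. Atf6, the membrane-bound sensor, was at 89.41 CPM in Fib-dZeb1 line 2 replicate 1, while the other 3 had 103.0 to 105.5 CPM.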

How the results depend on the processing

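By genotype (5 lower, 0 higher), scaling by library size alone gave 2 lower (Ddit3, Cebpb) and 2 higher (Hspa5, Atf3), and limma on log2(TPM + 1) gave 3 lower (Atf5, Ddit3, Cebpb) and 2 higher (Hspa5, Atf3). Over all genes, library size alone turned 978 higher and 1121 lower calls into 2272 and 719, and limma on log2(TPM + 1) gave 1994 and 725. DESeq2 called 1 higher (Atf3) beside 6 lower. The replicate block left 5 lower and 0 higher, the same genes, and the block over line and replicate number gave 1 higher (Atf3) and 6 lower (Atf5, Ddit3, Cebpb, Psph, Mthfd2, Slc7a5). Lines summed, the fit with correlation within lines, and the genotypes compared within replicate number 1 or 2 (added after seeing the data) gave 0 lower each. Over all genes these 4 settings gave 7 of 14163 lower, then 146, 7 and 50 of 12963. Leaving out single libraries gave 0 to 5 lower and 0 to 1 higher, where all genes gave 508 to 1141 lower and 476 to 1011 higher. RLE scaling left 5 lower (1127 of 12963 over all genes) and no filter 4 (937 of 21336).

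Within Fib-Ctrl (5 higher, 0 lower in line 2), library size alone gave 4 higher and 1 lower, and no filter 9 higher and 2 lower. DESeq2 gave 7 higher and 2 lower, and the replicate block 9 higher and 3 lower. Over all genes, library size alone gave 939 higher and 1237 lower of 12963, and no filter 1745 and 1827 of 21336. DESeq2 gave 1465 and 1377 of 14717, and the replicate block 1710 and 1635 of 12963, against 1078 and 1130 in the main fit. Within Fib-dZeb1 (2 higher, 1 lower), no filter gave 10 higher and 1 lower, DESeq2 7 higher and 2 lower, and the replicate block 9 higher and 2 lower. Over all genes, no filter gave 1111 higher and 1108 lower of 21336, and DESeq2 811 and 781 of 13476. The replicate block gave 879 and 865 of 12963, against 439 and 451 in the main fit. For replicate 2 against 1 (none), no filter gave 8 lower and DESeq2 1 higher and 10 lower, and omissions gave 0 in each direction. Over all genes, no filter gave 124 higher and 178 lower of 21336, DESeq2 309 and 335 of 12649, and the main fit 2 and 1 of 12963. The cause of these differences was not tested. No called member changed sign in any setting. Line and replicate number together did not pair libraries across genotypes, since the best correlation was with the namesake for 3 of 8, whereas the replicate number alone did tie lines together (correlations of 0.137 to 0.338). With 2 lines per genotype, the fits by line have few degrees of freedom.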
